A study of Homo sapiens with 9 samples.

Results

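Hep3B, a human hepatocellular carcinoma cell line, was profiled by RNA sequencing, and the vascular endothelial growth factor (VEGF) family is described here through 8 genes: the ligands VEGFA, VEGFB, VEGFC and PGF, the receptors FLT1 and KDR, and the co-receptors NRP1 and NRP2. The genes were picked by symbol from the 60683 that the count table lists, and each symbol matched 1 Ensembl identifier. The 9 libraries came from 3 groups of cells, with 3 biological replicates per group, and exposure lasted 24 hours in each group. Cells were given DMSO vehicle at 20% O2, DMSO vehicle at 1% O2 or an inhibitor of hypoxia-inducible factors (HIFs) at 1% O2. The inhibitor is the compound named in the title of the study that reported these data, and its libraries are named 134D1pct. No library combined the compound with 20% O2, so an action of the inhibitor at high oxygen was not measured. All libraries came from 1 established line grown alone, without endothelial or stromal cells, and in such bulk libraries fewer cells that carry an RNA and less of that RNA per cell cannot be told apart.

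VEGF ligands are secreted dimers that stimulate the growth of blood and lymphatic vessels. Hypoxic tumor cells typically release VEGFA, and endothelial cells typically carry the tyrosine kinase receptors FLT1 (VEGFR-1) and KDR (VEGFR-2). The neuropilins NRP1 and NRP2 bind some VEGF isoforms and also serve as receptors for class 3 semaphorins. HIFs bind a short core element, A or G followed by CGTG, and VEGFA is one of the best known HIF target genes.

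Total counts ranged from 6013980 to 40549699 per library, with the smallest in replicate 2 of vehicle at 20% O2. That library and replicate 3 of the HIF inhibitor stood apart from their groups on the second principal component, at -75.2 and 47.0, against -12.2 to 16.2 for the others. The calls of the members described below held without either library. All 10 hepatocyte-type markers examined, among them ALB and AFP, were detected in these cells, and they summed to 18730.0 to 20140.0 CPM in vehicle at 20% O2, 13710.0 to 17080.0 in vehicle at 1% O2 and 11910.0 to 18450.0 with the inhibitor, the lowest being replicate 3. In hypoxia APOB, the apolipoprotein of very-low-density lipoprotein, fell by 3.47 on the log2 scale, from a mean of 4487 to 405.5 CPM. AFP fell by 0.69, a call lost in 3 of 19 alternative fits, and the other 8 did not pass. Hypoxia had 19.5% of all genes tested called higher and 20.3% lower. With the inhibitor at 1% O2, APOB rose by 3.12, and 3 of the list fell, TTR (-0.92), FGB (-0.98) and TF (-0.80). Among all genes tested 16.2% rose and 13.7% fell in that comparison. Without replicate 3 of the inhibitor the values of TTR, FGB and TF were -0.53, -0.55 and -0.46 and no longer called. Of 10 endothelial markers, TEK, VWF, ERG and ROBO4 had no count in any library and CDH5 and CLDN5 had at most 1 count in any library. Of the rest, EGFL7 made up most of the reads, with 27.5 CPM in vehicle at 20% O2 and 30.6 in vehicle at 1% O2, ESAM rose in hypoxia from 2.87 to 10.7 CPM and fell with the inhibitor, PECAM1, under 1 CPM in each group mean, fell and then rose, and TIE1 did not pass. The summed level of these markers was 30.3 to 33.1 CPM in vehicle at 20% O2, 40.0 to 43.9 in vehicle at 1% O2 and 30.1 to 36.3 with the inhibitor. The part of these shifts in the results below was not tested. CA9, a HIF target, rose by 4.38 on the log2 scale in hypoxia (FDR 1.14e-12, edgeR). RPL13A, a ribosomal protein gene, also rose in hypoxia here, by 0.87 (FDR 2.26e-06, edgeR). The study describes it as not induced by hypoxia and unaffected by its compounds, in RT-qPCR scaled to ribosomal RNA. With the inhibitor it differed by -0.63 from vehicle at 1% O2 (FDR 7.76e-05, edgeR), a call lost in 10 of 19 alternative fits.

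In hypoxia, 3 of the 4 ligands rose and both neuropilins fell. VEGFA, the main angiogenic ligand of the family, rose 5.47-fold, VEGFC rose 4.37-fold and PGF rose 2.49-fold, while NRP1 fell by 1.85 and NRP2 by 0.91 on the log2 scale. VEGFB was the ligand that did not pass the thresholds, and the receptor genes KDR and FLT1 were almost without reads. With the HIF inhibitor at 1% O2, the same 5 genes moved the other way. A gene was called with a false discovery rate (FDR) below 0.05 and a fold change above 1.5 in edgeR's quasi-likelihood test. Over the 22672 genes tested, 19.5% were called higher and 20.3% lower in hypoxia, so the 3 higher and 2 lower of the 6 tested members stand against a response that touched many genes.

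The sequences before the transcription starts of 3 ligand genes are shown because these genes share a family but not a response. They were taken from RefSeq on GRCh38.p14, read 5′ to 3′ on the strand of the gene, and end where RefSeq or GENCODE places the first transcribed base. Capitals mark GCGTG or its reverse complement, and ACGTG was searched as well on both strands.
VEGFC (rose), chr4:176792923-176793172, minus strand: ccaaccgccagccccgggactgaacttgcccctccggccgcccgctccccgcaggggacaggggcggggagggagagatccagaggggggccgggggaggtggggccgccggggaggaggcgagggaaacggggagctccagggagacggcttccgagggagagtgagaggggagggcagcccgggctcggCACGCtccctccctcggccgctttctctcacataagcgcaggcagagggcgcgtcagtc
PGF (rose), chr14:74955785-74956014, minus strand: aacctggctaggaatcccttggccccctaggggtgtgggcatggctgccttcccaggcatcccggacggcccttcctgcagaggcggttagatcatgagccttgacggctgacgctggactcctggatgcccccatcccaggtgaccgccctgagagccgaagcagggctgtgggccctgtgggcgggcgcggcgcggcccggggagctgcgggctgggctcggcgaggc
VEGFB (did not pass), chr11:64234334-64234537, plus strand: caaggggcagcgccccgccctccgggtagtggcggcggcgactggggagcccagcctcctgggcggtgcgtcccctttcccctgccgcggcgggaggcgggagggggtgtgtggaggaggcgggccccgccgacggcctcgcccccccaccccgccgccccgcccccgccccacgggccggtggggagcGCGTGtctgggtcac
VEGFC and VEGFB each held 1 match, 59 and 61 bases before the RefSeq start, and PGF held none in the 250 bases before its first listed start. The window of its second listed start held 1, 162 bases before that start. Only 63 bases of that window lie before the GENCODE start, and the match lies inside the gene. Of 35116 windows of this length in the table, 43.2% held at least 1 match to ACGTG or GCGTG, and here a match was present in a ligand gene that rose and in one that did not pass. FLT1 held 1 match, KDR and NRP2 held none, and VEGFA and NRP1 were not in the table. The NRP2 window had 0 bases before the GENCODE start, so it held transcribed sequence only.

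VEGFA (ENSG00000112715) lies on chromosome 6 from 43770184 to 43786487 in GRCh38 (GENCODE 29) and has 32 annotated transcripts, whose reads were summed here. Its levels in CPM, the counts of a gene relative to the library total after TMM scaling, were 216, 249.7 and 246 in the libraries of vehicle at 20% O2. They were 1204, 1350.0 and 1338 in vehicle at 1% O2. The inhibitor libraries had 386, 390.4 and 334. The groups did not overlap, with the vehicle libraries at 1% O2 highest and the inhibitor libraries between. Hypoxia changed it by 2.45 on the log2 scale (95% interval 2.26 to 2.64, standard error 0.09, FDR 3.05e-11), and 639 of the genes tested had a higher fold change. The inhibitor changed it by -1.81 against vehicle at 1% O2 (standard error 0.09, FDR 1.54e-09). VEGFA was the only member that stayed higher with the HIF inhibitor than in vehicle at 20% O2, by 0.64 on the log2 scale (95% interval 0.46 to 0.83, FDR 0.000205). That value is 1.56-fold, close to the threshold, and without replicate 1 of vehicle at 20% O2 it was 0.58 (FDR 0.00108) and no longer called. Without replicate 3 of the inhibitor it was 0.71.

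VEGFC (ENSG00000150630, chromosome 4, 176683538 to 176792727), the ligand best known for lymphatic vessel growth, was much less abundant. It had 6.60, 5.65 and 5.11 CPM in vehicle at 20% O2, and 23.6, 27.4 and 24.3 CPM in vehicle at 1% O2. The inhibitor libraries held 6.04, 6.13 and 3.34 CPM. The libraries of the HIF inhibitor group overlapped those of vehicle at 20% O2 and lay below every vehicle library at 1% O2, with replicate 3 the lowest of the 9. Its fitted log2 fold changes were 2.13 in hypoxia (FDR 2.16e-07, standard error 0.19) and -2.25 with the HIF inhibitor (standard error 0.18, FDR 1.51e-07). Without replicate 3 of the HIF inhibitor the second value was -2.04. Between the HIF inhibitor and vehicle at 20% O2 the difference was -0.12 (95% interval -0.55 to 0.30, FDR 0.768), and 0.10 without replicate 3 of the inhibitor. The smallest library held 36 reads of this gene, so its level there is known less closely than elsewhere.

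PGF (ENSG00000119630, chromosome 14, 74941834 to 74955784) encodes placental growth factor, which binds FLT1 and not KDR. Its levels were 18, 14.1 and 13.9 CPM in vehicle at 20% O2, 38.7, 42.9 and 33.1 CPM in vehicle at 1% O2, and 19.8, 18.2 and 16.6 CPM with the HIF inhibitor. All vehicle libraries at 1% O2 lay above all others, and the remaining groups overlapped. The log2 fold changes were 1.31 in hypoxia (standard error 0.13, FDR 5.27e-07) and -1.06 with the HIF inhibitor (standard error 0.12, FDR 4.46e-06). Against vehicle at 20% O2, PGF with the HIF inhibitor differed by 0.25 (95% interval -0.02 to 0.53, FDR 0.2496).

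VEGFB (ENSG00000173511, chromosome 11, 64234538 to 64238793) also binds FLT1 and is linked more to tissue metabolism than to vessel growth. It had 59.6, 62.0 and 57.2 CPM in vehicle at 20% O2, 42.6, 49.4 and 50.6 CPM in vehicle at 1% O2, and 49.0, 45.7 and 31.7 CPM with the HIF inhibitor. Its hypoxic libraries lay below the normoxic ones, but the log2 fold change was -0.32 (95% interval -0.60 to -0.05, FDR 0.0483), which is 1.25-fold and under the fold threshold. With the HIF inhibitor against vehicle at 1% O2 it was -0.17 (95% interval -0.44 to 0.11, FDR 0.307), it was -0.0012 without replicate 3 of the HIF inhibitor, and its sign turned when the libraries were scaled by their totals (0.02). Against vehicle at 20% O2 it was -0.49 (95% interval -0.77 to -0.21, FDR 0.0271), again under the fold threshold, and -0.33 without replicate 3 of the HIF inhibitor.

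**Figure D1:**
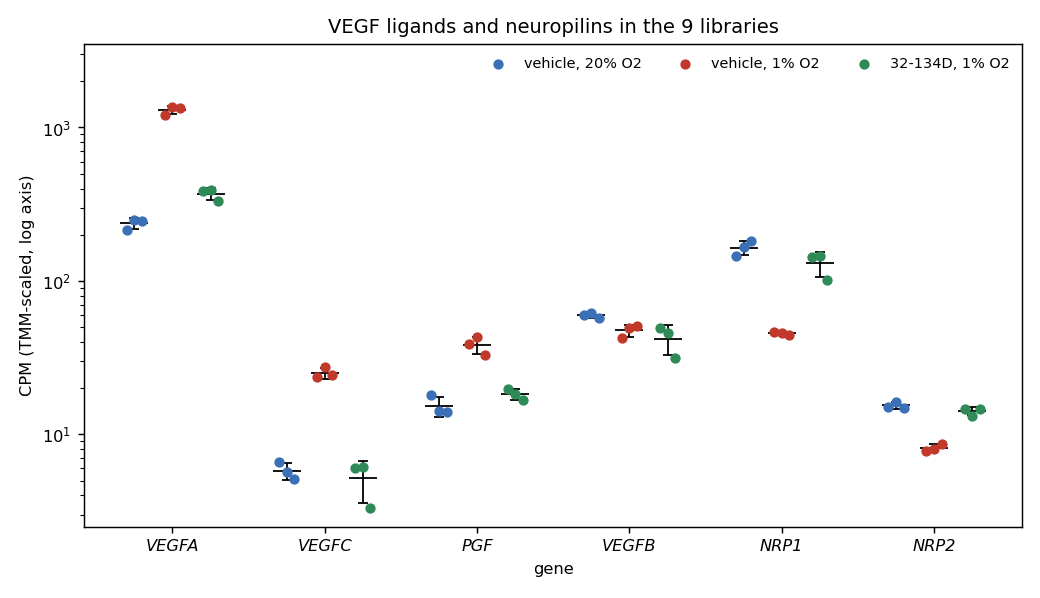
Level of each of the 6 expressed genes in the 9 libraries, as TMM-scaled CPM on a log axis. Points are libraries, and bars are the mean and SD of the 3 replicates of a group. In VEGFA, VEGFC and PGF the vehicle libraries at 1% O2 are highest, in NRP1 and NRP2 they are lowest, and VEGFB shows the smallest spread between groups.

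The neuropilins followed the opposite course to VEGFA, VEGFC and PGF. NRP1 (ENSG00000099250, chromosome 10, 33177492 to 33336262) had 146, 167 and 181 CPM in vehicle at 20% O2, 46.4, 46.0 and 44.2 CPM in vehicle at 1% O2, and 144, 145 and 102 CPM with the HIF inhibitor. Every library of vehicle at 1% O2 lay below every other library. On the log2 scale NRP1 differed by -1.85 in hypoxia (FDR 9.48e-09, standard error 0.12) and by 1.52 with the HIF inhibitor (standard error 0.12, FDR 1.61e-07), and the latter was 1.67 without replicate 3 of the HIF inhibitor. Against vehicle at 20% O2, NRP1 with the HIF inhibitor differed by -0.34 (95% interval -0.59 to -0.09, FDR 0.0871) and did not pass, although the libraries did not overlap, and the difference was -0.19 without that replicate.

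NRP2 (ENSG00000118257, chromosome 2, 205681990 to 205798133) was lower than NRP1 in every library. It had 15.1, 16.3 and 14.9 CPM in vehicle at 20% O2, 7.85, 8.06 and 8.68 CPM in vehicle at 1% O2, and 14.7, 13.2 and 14.5 CPM with the HIF inhibitor. Again the vehicle libraries at 1% O2 lay below all others. Its log2 fold changes were -0.91 in hypoxia (standard error 0.11, FDR 4.77e-06) and 0.79 with the HIF inhibitor (standard error 0.10, FDR 2.02e-05). NRP2 with the inhibitor differed from vehicle at 20% O2 by -0.12 (95% interval -0.34 to 0.11, FDR 0.559). In the comparison of the HIF inhibitor with vehicle at 1% O2, 2 members were called higher and 3 lower, against 16.2% and 13.7% of all genes tested. Against vehicle at 20% O2, 1 member was higher and 0 were lower, where 3.0% and 0.516% of all genes tested were called by edgeR. At an unadjusted p below 0.05, 2 members were lower there, VEGFB and NRP1, and DESeq2 called 0.

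**Figure D2:**
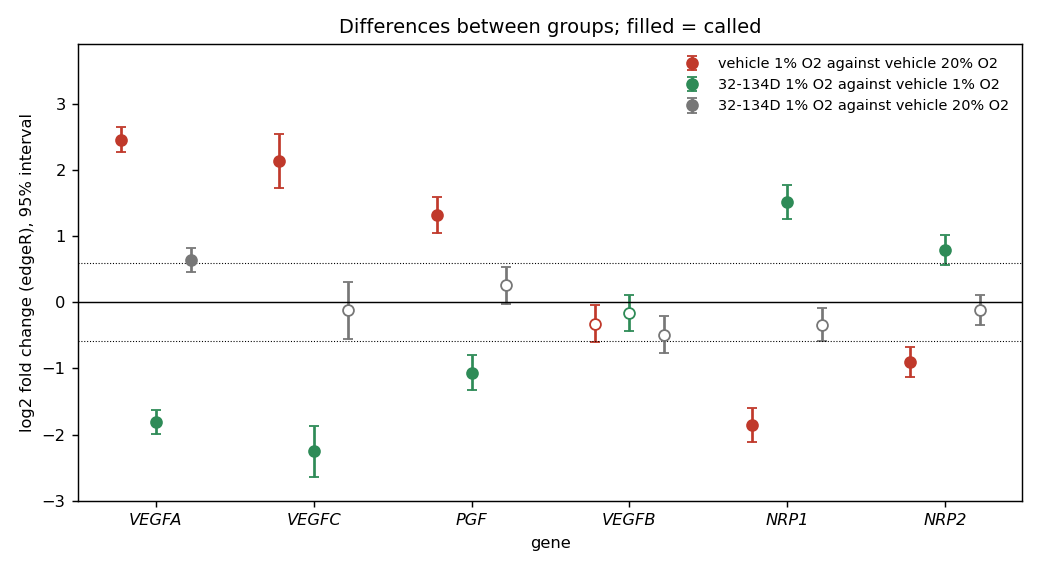
Log2 fold changes of the 6 tested genes in the 3 comparisons, with 95% intervals from edgeR, and dotted lines at a fold change of 1.5. Filled points were called. VEGFA, VEGFC and PGF lie above 0 in hypoxia and below 0 with the HIF inhibitor, the neuropilins lie the other way, and of the differences between the HIF inhibitor and vehicle at 20% O2 the one of VEGFA is filled.

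As a share of the hypoxic change on the log2 scale, the HIF inhibitor removed 73.8% ± 5.11 (SD, n = 3) for VEGFA, 110% ± 23.3 (SD, n = 3) for VEGFC and 80.6% ± 9.55 (SD, n = 3) for PGF. For NRP1 it was 81.0% ± 15.8 (SD, n = 3) and for NRP2 86.3% ± 9.24 (SD, n = 3). The lowest share of a single library was 62.8%, in replicate 3 for NRP1, and the highest was 137%, in the same replicate for VEGFC. These shares use the vehicle libraries at 1% O2 as the starting point of both changes, so the opposite signs are not independent of each other. The libraries of VEGFC lay above those of the other 4 genes, whose ranges overlapped, and no difference between genes was tested.

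The receptor genes gave almost no reads. KDR (ENSG00000128052, chromosome 4, 55078259 to 55125595), the main signaling receptor for VEGFA, had 0 counts in each of the 9 libraries. A count of 0 allows up to 3 counts, which is from 0.0795 CPM in the largest library to 0.471 CPM in the smallest, for counting error only. FLT1 (ENSG00000102755, chromosome 13, 28300344 to 28495145) had 2 counts in replicate 2 and 1 in replicate 3 of vehicle at 1% O2, 1 count in replicate 2 of the HIF inhibitor and 0 in the other libraries. Neither gene reached the 10 counts needed for a test, so no response of them could be measured. FLT4 (VEGFR-3), the main receptor for VEGFC, and VEGFD, the remaining ligand of this branch, had at most 4 counts each in any library, and neither passed in any comparison.

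Per kilobase of merged exons, VEGFB had the highest level of the members in vehicle at 20% O2, at 38.6 ± 1.56 CPM per kb (SD, n = 3). VEGFA followed at 16.4 ± 1.30 and NRP1 at 14.3 ± 1.53, and the ranges of those levels overlapped, as did those of PGF at 2.57 ± 0.386 and VEGFC at 2.39 ± 0.311. NRP2 was lowest of the expressed members at 1.11 ± 0.0556 CPM per kb. In vehicle at 1% O2, VEGFA stood first at 89.9 ± 5.61 CPM per kb, VEGFB came second at 30.8 ± 2.77, and NRP1, at 3.96 ± 0.101, had dropped below VEGFC at 10.4 ± 0.842 and PGF at 6.41 ± 0.827. With the HIF inhibitor the levels of VEGFB, 27.3 ± 5.95, and VEGFA, 25.7 ± 2.17, overlapped. The length used matters most for VEGFA, whose merged exons span 14431 bases against 3535 in its longest coding transcript. With the longest coding transcript VEGFA was first in all 3 groups, at 67.1, 367 and 105 CPM per kb, and PGF passed VEGFC in vehicle at 1% O2.

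Within each library, the makeup of the ligand counts does not depend on scaling between libraries. VEGFA made up 71.9%, 75.3% and 76.4% of the counts of the 4 ligands in vehicle at 20% O2, 92.0%, 91.8% and 92.5% in vehicle at 1% O2, and 83.8%, 84.8% and 86.6% with the HIF inhibitor. The 3 groups did not overlap. The mean was 17.6 percentage points higher in vehicle at 1% O2 than in normoxia, and with the HIF inhibitor it stayed 10.5 points above normoxia. With counts divided by the merged exon length, the VEGFA share was 27.4%, 65.4% and 44.5% in the 3 groups in this order, with a difference of 38.0 points in hypoxia. Each of the 3 differences had p = 0.1 in an exact two-sided permutation test, the smallest p that 3 libraries against 3 can give. VEGFB made up 18.8% ± 1.07 (SD, n = 3), 3.37% ± 0.120 (SD, n = 3) and 9.59% ± 1.24 (SD, n = 3) of the ligand counts in the same groups. VEGFC kept a like share in both vehicle groups, 1.83% ± 0.327 (SD, n = 3) and 1.78% ± 0.0946 (SD, n = 3), and had 1.17% ± 0.263 (SD, n = 3) with the HIF inhibitor.

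**Figure D3:**
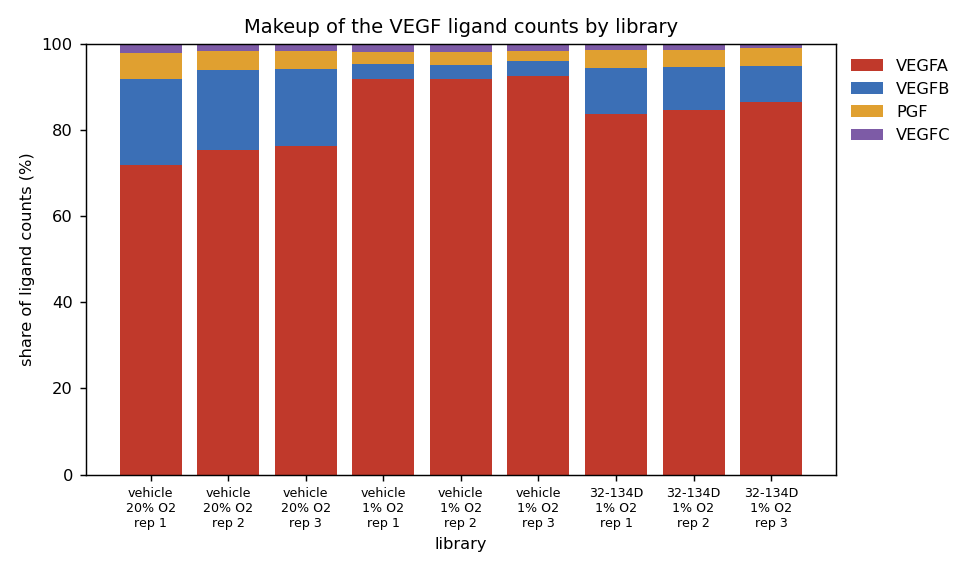
Share of VEGFA, VEGFB, PGF and VEGFC in the summed counts of the 4 ligands, in percent, with 1 bar per library and the axis from 0 to 100. The VEGFA part is 71.9% to 76.4% in vehicle at 20% O2, 91.8% to 92.5% in vehicle at 1% O2 and 83.8% to 86.6% with the HIF inhibitor.

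NRP1 made up 90.7%, 91.1% and 92.4% of the neuropilin counts in vehicle at 20% O2, 85.6%, 85.1% and 83.6% in vehicle at 1% O2, and 90.7%, 91.6% and 87.5% with the HIF inhibitor. The vehicle libraries at 1% O2 lay below the others, and the other groups overlapped. The mean difference was -6.63 percentage points in hypoxia and 5.21 with the HIF inhibitor, each with p = 0.1 in the exact permutation test, and -1.42 between the HIF inhibitor and vehicle at 20% O2 (p = 0.5, exact permutation test).

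The genes with the pattern most like each member were those with the smallest root mean square (RMS) difference in log2 CPM over the 9 libraries, after each gene was centered on its mean, among 13910 genes compared with at least 1 CPM on average. For VEGFA they were EGLN1, a HIF prolyl hydroxylase (RMS difference 0.0573), STBD1, a glycogen-binding protein (0.0718), and HK2, a hexokinase (0.0722), against a median of 1.01 over all genes compared. VEGFC was farther from its nearest genes, PGM1 (0.156), a phosphoglucomutase, SLC2A14 (0.166), a glucose transporter whose reads could be split with the near-identical SLC2A3, and UNC93A (0.188). For PGF they were SEC22A (0.0779), CDS1 (0.0933) and TUBB6 (0.0998), and for VEGFB SLC37A4 (0.0523), CNPY4 (0.0621) and CKB (0.0623). NRP1 was nearest to ABHD2 (0.0655), PIK3C2B (0.0783) and CTNND2 (0.0802), and NRP2 to PARVA (0.0537), ATXN7L3B (0.0678) and CLN6 (0.0684).

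Genes around the receptors were followed in lists written from general knowledge of the pathway. Of 12 class 3 semaphorins and plexins, the other ligands and signaling partners of the neuropilins, 11 were tested, and in hypoxia 7 fell and 0 rose by edgeR (1 at an unadjusted p below 0.05, and 0 by DESeq2), where 20.3% and 19.5% of all genes tested did, with a median log2 fold change of -1.26 against 0.0010 over all genes tested. With the HIF inhibitor, 7 rose and 1 fell, beside 16.2% and 13.7% of all genes, with a median of 1.03 against -0.01. The 1 that fell, SEMA3B (-0.63), lost its call in 12 of 19 alternative fits, DESeq2 among them. PLXNA1 and PLXNA2, plexins that pair with neuropilins, had log2 fold changes of -1.26 and -2.07 in hypoxia and 1.03 and 1.96 with the HIF inhibitor, or 0.99 and 1.85 without its replicate 3. SEMA3A, a repulsive guidance ligand of NRP1, had 21.2, 20.4 and 22.7 CPM in vehicle at 20% O2, 6.36, 8.30 and 8.81 in vehicle at 1% O2, and 20.2, 20.6 and 51.3 with the HIF inhibitor. Its log2 fold change with the HIF inhibitor was 1.97, and 1.40 without replicate 3, the library far above the others. PLXND1 rose by 0.69 with the HIF inhibitor, but by 0.48 without replicate 3 of the HIF inhibitor, which is no longer called.

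Of 10 phosphatases and partners of the VEGF receptors, 9 were tested, 5 fell and 0 rose in hypoxia, and 4 rose and 0 fell with the HIF inhibitor, and both counts of 0 were also 0 at an unadjusted p below 0.05 and by DESeq2. The shares of all genes tested were 20.3% lower and 19.5% higher in hypoxia and 16.2% higher and 13.7% lower with the inhibitor, and the list's median log2 fold changes were -0.66 and 0.21. HSPG2, the matrix proteoglycan perlecan, had the largest change of this list, from 1919 ± 389 CPM (SD, n = 3) in vehicle at 20% O2 to 201 ± 6.50 CPM (SD, n = 3) in vehicle at 1% O2 and 1533 ± 43.0 CPM (SD, n = 3) with the HIF inhibitor. ITGAV, the integrin alpha V chain, had log2 fold changes of -2.06 and 2.15, the second 1.91 without replicate 3 of the inhibitor. Of 5 genes that process VEGF-C, 4 were tested, of which 3 fell in hypoxia, where 20.3% of all genes tested did. Among them was ADAMTS3, the protease that cleaves the VEGF-C precursor (-2.81, FDR 5.97e-06, edgeR). CCBE1, which was not tested, had at most 1 count in any library. With the HIF inhibitor, 2 of the 4 rose, where 16.2% of all genes did. ADAMTS3 rose by 2.67 and PCSK5 by 2.17, the latter 1.29 without replicate 3 of the HIF inhibitor. ADAMTS3 had few reads, with 23, 10 and 49 counts in vehicle at 20% O2. It had 7, 7 and 5 in vehicle at 1% O2, and 49, 51 and 24 with the inhibitor. At these low counts, VEGFC and ADAMTS3 moved in opposite directions in hypoxia and with the inhibitor at 1% O2.

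Of 20 signal carriers below the receptors, 19 were tested, and they split in hypoxia into 5 that rose, 3 that fell and 11 that did not pass, close to the 19.5% higher and 20.3% lower of all genes tested. GAB1, NCK1 and PIK3CA were among those that rose, at 1.53, 1.18 and 0.86. PRKCA, a protein kinase C isoform, fell by 2.55 and rose by 2.43 with the HIF inhibitor. In the latter comparison 2 of the list rose and 3 fell, where 16.2% and 13.7% of all genes did. When the libraries were scaled by their totals, the counts of this list were 3 higher and 6 lower in hypoxia and 4 higher and 1 lower with the HIF inhibitor.

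**Figure D4:**
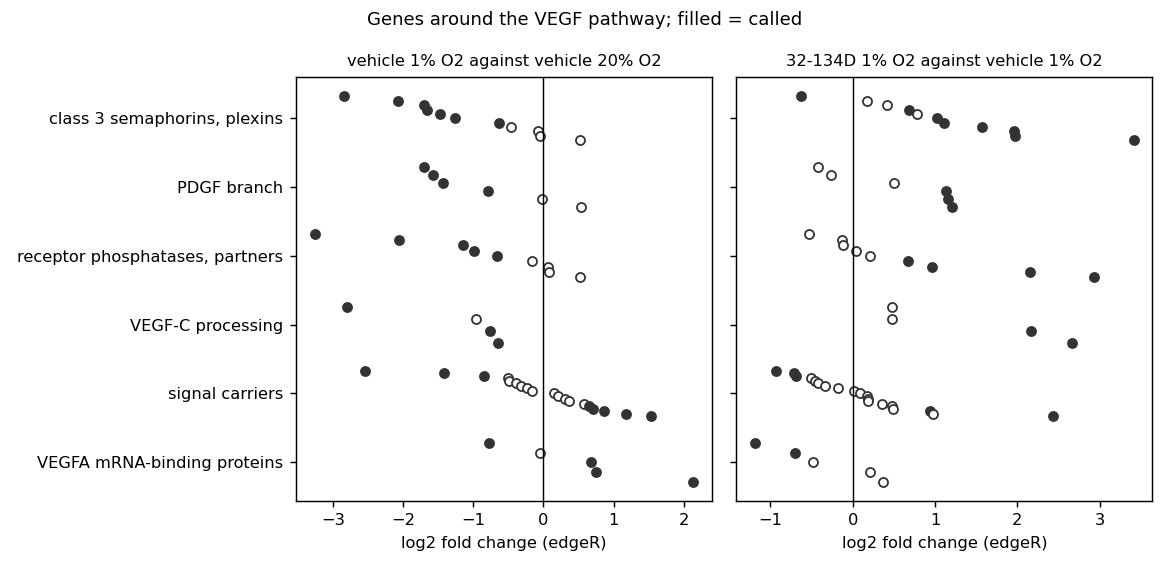
Log2 fold changes from edgeR of the tested genes in 6 lists around the VEGF pathway, in hypoxia (left) and with the HIF inhibitor (right). Each point is 1 gene, and filled points were called. The 7 called semaphorins and plexins lie below 0 in hypoxia, and 7 of the 8 called with the HIF inhibitor lie above 0.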

How the data were processed

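Hep3B cells were exposed for 24 hours to 20% or 1% O2, and RNA was sequenced on a NovaSeq. Reads were checked with FastQC, trimmed with Bbduk, aligned with STAR to GRCh38 (Ensembl 100) and counted with featureCounts, and the gene counts deposited by the authors are not normalized. The strand setting is not given in the sources used here, so reads of overlapping antisense genes may not be told apart. The 9 columns were matched to samples by the names in their titles, with 0 unmapped. Replicates differed by more than counting error (chi-square per degree of freedom 1.64 to 40.5).

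Genes with at least 10 counts in all were fitted with edgeR 4.0.16 (R 4.3.3) in 1 fit of the 9 libraries, with TMM scaling, quasi-likelihood tests and Benjamini-Hochberg adjustment over all 22672 genes tested. Calls needed an FDR below 0.05 and a fold change above 1.5. Standard errors were derived from the F statistic. Exact permutation tests, two-sided, were used for shares. Log2 CPM used a prior count of 2. By the rule for named genes, these are the 8 members, called genes of the lists, the 3 nearest patterns of each member with at least 1 CPM, CA9, RPL13A and genes that overlap a member. Some uncalled list genes are named outside that rule, after their values were seen. They are VEGFD, FLT4, PDGFA, PDGFB, CCBE1, ANGPT2, ANGPT4, TIE1, ALB, EGFL7, ZFP36L1 and the markers at or near 0 counts. The members and lists were chosen with earlier results of these data known. Alternatives used DESeq2 1.42.0, other scalings, filters and thresholds, thinning, fits of the 2 groups compared, a replicate block and leaving out libraries. The procedure was tested on simulated counts in which few genes changed, so that test does not cover a response as broad as the one here.

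Positions and lengths are from GENCODE 29 on GRCh38, and promoter windows from RefSeq on GRCh38.p14. Total counts ran from 6013980 to 40549699 per library, which limits the precision for genes with few reads. The p-values measure the spread between 3 cultures of 1 line.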

Additional observations from a re-analysis of the deposited data

How the results depend on the processing

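The calls of the 5 members in hypoxia and against vehicle at 1% O2 held in each refit, scaling, filter and left-out library, and changed where the fold threshold did. With a fold change above 2, NRP2 lost its call, which left 1 member lower in hypoxia and 1 higher with the HIF inhibitor, and VEGFA lost its call against vehicle at 20% O2, which left 0 members higher. With no fold threshold, VEGFB was the 1 member lower than vehicle at 20% O2, and it also counted as lower in hypoxia. With 1 library left out, 0 to 1 members were higher and 0 to 1 lower than vehicle at 20% O2, where VEGFA lost its call without replicate 1 of vehicle at 20% O2 and VEGFB gained one (-0.61) without replicate 1 of the HIF inhibitor. The cause was not tested. In single-gene values, 371 kept their call or stayed uncalled, 4 were weaker and 3 stronger. Values uncalled in both fits were counted as kept whatever their sign. The sign of VEGFB with the inhibitor, for example, turned with total library size. Leaving out replicate 2 of vehicle at 20% O2 and replicate 3 of the inhibitor together was chosen after seeing the data, and the member calls held.

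Over the whole table, the genes higher in hypoxia, 4412 in the main result, numbered 2824 where each library had to hold 10 counts and 2449 at a fold change above 2. Those lower with the inhibitor, 3100 in the main result, numbered 1771 under the same count filter, 1188 at a fold change above 2, 5788 with no fold threshold, 1847 with total library size and 2039 with thinning. Against vehicle at 20% O2, 283 were higher at a fold change above 2 and 1771 with no fold threshold, against 681. The lower ones, 117 in the main result, were 291 with no filter, 44 in fits of the 2 groups, 53 with both doubted libraries left out, 21 and 553 with those fold thresholds, and 35 to 198 with 1 library left out. Scaling by library totals made 34.5% of the calls in hypoxia upward, where TMM gave 49.0%, and 72.0% of those with the inhibitor, where TMM gave 54.2%, and it moved the median of all genes by -0.21 and 0.18.

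In counts per exon length, the differences in the VEGFA share were 38.0, -20.9 and 17.1 percentage points, and with thinning the hypoxic difference in the NRP1 share was -5.25. Replicate numbers did not pair the samples, as same-numbered libraries had correlations of their deviations from -0.0322 to 0.0053. With the replicate as a block, 3 members were higher and 2 lower in hypoxia, with the inhibitor 2 were higher and 3 lower, VEGFA kept 2.45 in hypoxia, and the block changed no call of a member.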

Other observations

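Of the 6 genes of the PDGF branch of the same growth factor family, 4 fell in hypoxia and 0 rose, and with the HIF inhibitor 3 rose and 0 fell by edgeR, beside 20.3% lower in hypoxia and 16.2% higher with the inhibitor among all genes tested. At an unadjusted p below 0.05, 1 was higher in hypoxia and 1 lower with the HIF inhibitor, and DESeq2 called 0 of either. PDGFRB, a receptor known from pericytes and fibroblasts, had 27.2 ± 1.86 CPM (SD, n = 3) in vehicle at 20% O2, 10.1 ± 0.583 CPM (SD, n = 3) in vehicle at 1% O2 and 21.99 ± 2.13 CPM (SD, n = 3) with the HIF inhibitor. Its log2 fold changes were -1.44 (FDR 3.3e-08, edgeR) and 1.13 (FDR 6.45e-07, edgeR). PDGFRA had log2 fold changes of -1.58 and 1.16, and the ligand PDGFD of -1.70 and 1.21, the latter 1.41 without replicate 3 of the inhibitor. PDGFC fell by 0.79 in hypoxia and differed by 0.51 with the HIF inhibitor, under the fold threshold, and by 0.62 without its replicate 3, which is past it. The ligands PDGFA and PDGFB did not pass in hypoxia, with -0.03 (FDR 0.908, edgeR) and 0.53 (FDR 0.0109, edgeR). With the inhibitor they did not pass either, with -0.26 (FDR 0.180, edgeR) and -0.42 (FDR 0.0341, edgeR). Without replicate 3 of the inhibitor, PDGFB differed by -0.66, which is past the fold threshold, in the lower direction. Fibroblast and pericyte markers, a list of 8 genes, summed to 36.7 to 40.5 CPM in vehicle at 20% O2. The sum was 17.9 to 19.1 CPM in vehicle at 1% O2 and 35.9 to 44.3 with the HIF inhibitor. PDGFRB, itself in the list, was its largest part in each group. Of the 5 tested, 3 fell in hypoxia and 4 rose with the HIF inhibitor, beside 20.3% lower and 16.2% higher among all genes tested. COL1A1 rose by 0.94, but by 0.56 without replicate 3 of the inhibitor, which is no longer called. COL1A2 rose by 1.28, a call lost in 6 of 18 alternative fits. Their hypoxic calls were lost in 1 of 19 fits for COL1A1 and 2 of 18 for COL1A2. LUM did not fall in hypoxia, with means of 2.43, 3.76 and 8.4 CPM in the 3 groups in this order. ACTA2 had 0 counts throughout, and the part of these markers in the PDGF result was not tested. The angiopoietin and TIE genes were hardly measured, as TEK and ANGPT4 had 0 counts in all libraries and ANGPT2, with 14 counts over the 9 libraries, and TIE1, with 17, did not pass.

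Of 5 genes for proteins that bind VEGFA mRNA, 3 rose in hypoxia and 1 fell, where 19.5% and 20.3% of all genes tested did. ZFP36, which promotes decay of AU-rich mRNAs, rose from 20.1 ± 1.94 to 87.9 ± 1.31 CPM (SD, n = 3), with a log2 fold change of 2.14 (FDR 5.69e-09, edgeR), and with the HIF inhibitor it had 38.8 ± 8.84 CPM (SD, n = 3), which is -1.18 on the log2 scale, or -1.38 without replicate 3 of the inhibitor. ZFP36 stayed 0.95 above vehicle at 20% O2 (FDR 0.000339, edgeR), or 0.76 without that replicate. HNRNPL and ELAVL1, which are known to stabilize VEGFA mRNA, rose by 0.75 and 0.67, and both lost these calls with total library size. The 1 that fell was ZFP36L2, from 223.2 ± 14.15 to 131.0 ± 2.39 CPM (SD, n = 3), or -0.77 on the log2 scale (FDR 0.00483, edgeR). ZFP36L2 was more abundant than ZFP36 in both vehicle groups. With the inhibitor it differed by 0.37 and did not pass (FDR 0.152, edgeR), and by 0.655 without replicate 3 of the inhibitor. ZFP36L1 did not pass in hypoxia (-0.05, FDR 0.784, edgeR).

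The antisense gene AL136131.3 lies wholly within VEGFA exons on the other strand, on chromosome 6 from 43770429 to 43770616. Its counts were 4, 2 and 10 in vehicle at 20% O2, 43, 39 and 50 in vehicle at 1% O2 and 10, 9 and 11 with the HIF inhibitor, with log2 fold changes of 2.34 (FDR 7.5e-05, edgeR) and -2.13 (FDR 6.22e-05, edgeR). All 188 bases of it overlap VEGFA exons, so without the strand setting its reads cannot be told apart from those of VEGFA. AL121748.2, which shares 561 exonic bases with NRP1 on the other strand, had at most 27 counts in a library and did not pass.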
